A study of Mus musculus with 15 samples.

Results

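Open chromatin over the Hox genes was followed at the consensus peaks of an ATAC-seq count table whose nearest protein-coding gene, in the RefSeq annotation of GRCm38.p6 (mm10), was one of 38 Hox genes. A peak belonged to a gene when its centre lay inside the gene's annotated interval or within 100 kb of it. By that rule 297 of 206367 peaks were Hox peaks, of which 66 belonged to the Hoxa cluster, 108 to Hoxb, 97 to Hoxc and 26 to Hoxd, and each of the 38 genes had at least 1 peak. Accessibility alone was measured, so no value below is an RNA level. A peak may also act on a gene other than its nearest one.

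The cells were mouse embryonic fibroblasts (MEFs), connective tissue cells grown from embryos, with a genotype labelled "C57/B16 background". Each of 5 groups holds 3 libraries made by Omni-ATAC-seq, in which a transposase places sequencing adapters into accessible DNA. Early Fra2 and late Fra2 cells carried CRISPRa-VPR-mCherry, a Cas9-based activator with a red reporter, plus lentiviral guide RNAs against Fosl2, the gene for the AP-1 protein Fra2. Late control and early control cells carried the same activator with scrambled guides, and all 4 of these groups were sorted as mCherry+/THY1+ cells. The sample labels give day 3 (early) and day 10 (late), the series design gives 4 and 11, and the library early control 3 is labelled day 4. Ezh2 inhibitor cells received 4 µM GSK343, a small molecule against the methyltransferase Ezh2, for 3 days and then had 1 day of washout. Their labels also give day 4 and do not say whether they were transduced or sorted, so inhibitor, transduction and sorting cannot be told apart in any comparison with that group. The labels do not name separate cultures behind the 3 libraries of a group. The p-values thus reflect only how far these libraries scatter, and that scatter may be technical.

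Hox genes encode homeodomain transcription factors that give cells of the early embryo their position along the head-to-tail axis. In the mouse they lie in clusters on separate chromosomes, and genes with the same number in different clusters, the paralogues, descend from a common ancestor gene. Low-numbered genes act toward the head and high-numbered genes toward the tail and the ends of the limbs, and fibroblasts keep much of the Hox pattern of the body site they came from. Polycomb repressive complex PRC2, whose catalytic subunit is Ezh2, places the H3K27me3 mark over silent Hox genes, while MLL-type complexes keep active ones open.

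The promoter bases shown first are those the ATAC data bear on. RefSeq promoter windows, from 250 bases before to 50 after an annotated start, were found for 22 of the 38 genes (24 windows), and 13 windows of 12 genes held a consensus peak. Of Hoxb only Hoxb1, Hoxb4 and Hoxb8 had a window and of Hoxc only Hoxc4, none with a peak. The promoter and motif values thus describe mainly Hoxa and Hoxd. Hoxa13 (digit and urogenital development) and Hoxd1 (sensory neurons in the mouse) are printed because their promoter peaks passed a test, and Hoxa3 (thymus, parathyroid and throat skeleton), Hoxa5 (lung and cervical skeleton) and Hoxd9 (forelimb patterning) because theirs were among the most accessible promoter peaks without a call. The Hoxa10 promoter peak, 7.86 CPM, reached only bases after the start, and its sequence is left out. Each line gives the 250 bases before the start, 5′ to 3′ on the gene's strand in mm10, with every CG in capitals. The Hoxa13 bases are chr6:52260881-52261130 on the minus strand, the Hoxd1 bases chr2:74762730-74762979 on the plus strand, and the Hoxa3 bases chr6:52213068-52213317 on the minus strand. The Hoxa5 bases are chr6:52204588-52204837 on the minus strand and the Hoxd9 bases chr2:74697513-74697762 on the plus strand.
Hoxa13: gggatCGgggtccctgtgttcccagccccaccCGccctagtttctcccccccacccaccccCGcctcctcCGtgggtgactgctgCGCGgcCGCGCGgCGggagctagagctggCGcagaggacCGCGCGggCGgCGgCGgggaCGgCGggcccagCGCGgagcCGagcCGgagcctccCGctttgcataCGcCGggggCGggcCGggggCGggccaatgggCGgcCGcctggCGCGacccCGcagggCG
Hoxd1: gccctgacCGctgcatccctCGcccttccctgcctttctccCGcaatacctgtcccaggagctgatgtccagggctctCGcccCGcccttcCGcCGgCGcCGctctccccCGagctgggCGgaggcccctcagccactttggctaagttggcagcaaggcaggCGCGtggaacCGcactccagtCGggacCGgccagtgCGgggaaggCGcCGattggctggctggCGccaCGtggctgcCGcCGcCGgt
Hoxa3: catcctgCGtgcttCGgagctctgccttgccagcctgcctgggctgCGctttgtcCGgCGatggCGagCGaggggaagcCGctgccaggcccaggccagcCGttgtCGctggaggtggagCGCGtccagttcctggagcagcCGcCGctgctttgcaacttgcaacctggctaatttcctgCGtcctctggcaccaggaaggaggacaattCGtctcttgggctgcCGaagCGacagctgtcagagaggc
Hoxa5: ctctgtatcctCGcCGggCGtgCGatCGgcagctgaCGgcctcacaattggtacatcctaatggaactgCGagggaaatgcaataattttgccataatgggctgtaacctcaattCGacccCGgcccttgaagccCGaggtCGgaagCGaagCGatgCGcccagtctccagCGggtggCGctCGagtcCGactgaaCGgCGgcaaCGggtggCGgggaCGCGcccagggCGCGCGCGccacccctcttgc
Hoxd9: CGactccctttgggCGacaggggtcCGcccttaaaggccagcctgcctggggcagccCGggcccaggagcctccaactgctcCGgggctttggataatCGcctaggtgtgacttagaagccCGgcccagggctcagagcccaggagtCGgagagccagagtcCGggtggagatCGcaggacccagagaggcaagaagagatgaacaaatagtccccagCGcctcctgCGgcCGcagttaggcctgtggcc
CG pairs are the substrate of DNA methylation, and Polycomb-bound promoters are typically rich in them. The Hoxa13 stretch holds 35 CG, Hoxa5 28, Hoxd1 24, Hoxa3 18 and Hoxd9 13, against a median of 6 and a 95th percentile of 31 over the same 250 bases of 32851 RefSeq windows. The AP-1 motif TGANTCA, searched on both strands of the 300-base windows, occurred in 1 of 24 Hox windows (4.17%), that of Hoxd11, and in 7.81% of all windows. The related motif TGACGTCA occurred in 0 of 24 Hox windows and in 1.79% of all windows. A motif match describes letters only.

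The Hox clusters also carry microRNA genes, and their mature RefSeq sequences are shown with the seed, bases 2 to 8, in capitals. The miR-10 pair shares one seed and the miR-196 pair another.
mmu-miR-10a-5p: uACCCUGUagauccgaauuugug
mmu-miR-10b-5p: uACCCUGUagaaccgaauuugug
mmu-miR-196a-5p: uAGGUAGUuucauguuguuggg
mmu-miR-196b-5p: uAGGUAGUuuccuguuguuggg
mmu-miR-615-3p: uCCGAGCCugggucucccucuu
MiR-196 is known to target Hox transcripts, and each of these genes lies inside a cluster. The nearest Hox peak lay 0.49 kb from Mir10a, 2.01 kb from Mir10b, 0.79 kb from Mir196a-1, 1.34 kb from Mir196a-2, 0.46 kb from Mir196b and 0.12 kb from Mir615. None of those 6 peaks was called in the comparison of early Fra2 with early control, where their log2 fold changes ran from −0.68 to 0.05. The lowest of these belonged to the peak beside Mir196b, a peak assigned to Hoxa10, which had 1.42, 1.68 and 1.73 CPM in early Fra2 and 2.74, 2.18 and 2.8 CPM in early control cells (log2 fold change −0.68 ± 0.30 SE, edgeR adjusted p = 0.119). Its groups do not overlap, but the difference did not pass the test. CPM here and below is the read count of a peak per M (mega) reads in peaks, after TMM scaling, which sets the typical peak equal between libraries.

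Depth ran from 6.75 M reads in early control 3 to 25.3 M, with the other 14 libraries at 12.7 M or more, so that 3 counts correspond to 0.117 to 0.42 CPM, while the least accessible Hox peak averaged 1.49 CPM. Early control 3 stood apart: the lowest correlation within a group was 0.817 to 0.822 for the early control libraries against 0.916 to 0.958 for the others, and every result against early control was also computed without it. Fosl2, the gene targeted by the guides, had 9 of its 36 peaks higher and 0 lower in early Fra2 than in early control cells (over all peaks 10.1% and 4.92%). It had 8 higher and 2 lower in late Fra2 than in late control cells (over all peaks 6.44% and 3.54%). Summed over its peaks, the log2 fold change was 0.15 ± 0.04 SE in early Fra2 (edgeR adjusted p = 0.00881) and −0.02 ± 0.04 SE in late Fra2 (edgeR adjusted p = 0.805). In Ezh2 inhibitor against early control cells it was −0.17 ± 0.04 SE (edgeR adjusted p = 0.0208). Gene ends of 9 of 10 fibroblast markers held a peak, with a summed level of 89.6 to 109 CPM in early Fra2, 76.3 to 87.8 in late Fra2, 83.2 to 89.7 in Ezh2 inhibitor, 94.3 to 105 in late control and 86.4 to 126 CPM in early control libraries. The fibroblast sum was thus lower in every late Fra2 than in every late control library. Of the lists for endothelial, macrophage, epithelial, neural and muscle cells, the neural one (3 of 5 genes with a peak) summed to 15.1 to 18.4 CPM in early Fra2, 14.5 to 16.3 in Ezh2 inhibitor and 19.8 to 21.6 CPM in early control libraries. The endothelial list (3 of 5) had 11.6 to 13.1 CPM in Ezh2 inhibitor against 13.2 to 16.0 CPM in early control libraries, and the muscle list (4 of 5) 10.5 to 11.2 CPM against 11.8 to 13.9 CPM. The macrophage (2 of 5) and epithelial (4 of 5) lists overlap in all 3 of these comparisons. No marker with a peak was at 0, and the part of these shifts in the Hox results was not tested.

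Hox peaks were about as accessible as other peaks in the median, and a larger share of them lay near gene ends. The median Hox peak had 3.49 CPM (range 1.49 to 16.2 CPM), against 3.27 CPM over all peaks. Of the Hox peaks 97 (32.7%) lay within 1 kb of an annotated gene end, against 13% of all peaks. Many Hox genes are short and lie close together, and the share of DNA near gene ends was not measured. Whether peaks favour the gene ends of the clusters can thus not be read from these shares. A further 108 lay in gene bodies and 92 outside genes, at a median distance of 15.2 kb. Gene-end Hox peaks were less accessible than gene ends in general, with a median of 3.51 CPM against 6.03 CPM over all gene-end peaks. Gene-body Hox peaks had a median of 3.7 CPM against 3.12 CPM, and Hox peaks outside genes 2.99 CPM against 2.98 CPM.

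Over the full span of its genes, Hoxa had the most peaks per 10 kb and Hoxd the fewest. The Hoxb span includes the long stretch from Hoxb13 (end 96196610) to Hoxb9 (start 96271330). The order of Hoxa and Hoxb therefore depends on whether that stretch is counted. The Hoxa genes span 98.5 kb of chromosome 6 (52162417 to 52260880) with 61 peaks inside, or 6.2 per 10 kb. The Hoxb genes span 174 kb of chromosome 11 (96194316 to 96368254) with 93 peaks, or 5.35 per 10 kb, and the Hoxc genes 116 kb of chromosome 15 (102921131 to 103036856) with 69 peaks, or 5.96 per 10 kb. The Hoxd genes span 96.9 kb of chromosome 2 (74668225 to 74765142) with 23 peaks, or 2.37 per 10 kb. Per kb of cluster the summed level was 2.61 CPM for Hoxa, 2.4 for Hoxb, 2.83 for Hoxc and 0.883 CPM for Hoxd. Hoxd, with a length close to that of Hoxa, thus held fewer peaks and less signal per kb. The count of peaks by gene follows the annotation in part: the long intervals of Hoxa3 (26 peaks) and Hoxb3 (28 peaks) contain other Hox genes, 12 peaks lay inside 2 or more genes, and such a peak was given to the gene with the shorter interval. Calls and sums under the names Hoxa3 and Hoxb3 thus include sites that lie between other Hox genes. Hoxc4 also had 28 peaks, Hoxb9 25, Hoxc6 19 and Hoxb1 15, while Hoxa6 and Hoxd4 had 1 each.

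**Figure D1:**
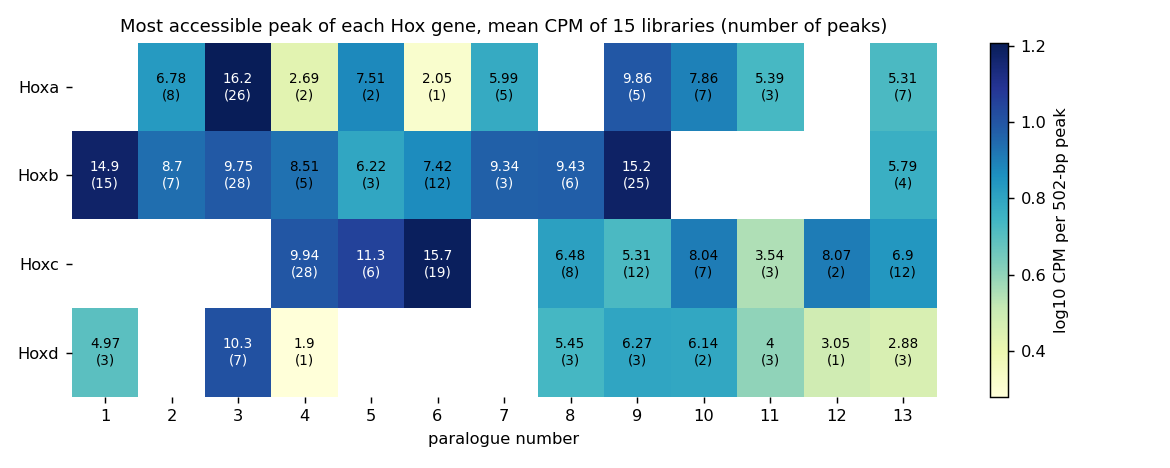
Mean level over 15 libraries, in CPM, of the most accessible peak of each of the 38 Hox genes, by cluster (vertical) and paralogue number (horizontal), with the number of peaks assigned to each gene printed below the level; blank cells hold none of the 38 genes. The darkest cells are Hoxa3 (16.2 CPM), Hoxc6 (15.7 CPM), Hoxb9 (15.2 CPM) and Hoxb1 (14.9 CPM), and the palest are Hoxd4 (1.9 CPM) and Hoxa6 (2.05 CPM).

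The heat map of lead peaks shows the most accessible peak of each gene. The highest was a gene-body peak of Hoxa3 (chromosome 6, 52172395 to 52172896), with 16.2, 14.1 and 12.2 CPM in early Fra2, 16.0, 15.3 and 15.4 in late Fra2, 14.9, 17.0 and 14.6 in Ezh2 inhibitor, 17.6, 21.5 and 18.5 in late control, and 20.1, 18.7 and 10.6 CPM in early control cells. The lead peak of Hoxb9, a gene of trunk identity, averaged 15.2 CPM at its gene end (chromosome 11, 96270931 to 96271432), and that of Hoxc6, a gene of the forelimb and thoracic level, 15.7 CPM in its gene body (chromosome 15, 102999190 to 102999691). Hoxb1, which marks a single hindbrain segment in the embryo, owed its lead peak of 14.9 CPM to a site 45.9 kb outside the gene (chromosome 11, 96413924 to 96414425). The lead peaks of Hoxd3 (10.3 CPM), Hoxc5 (11.3 CPM), Hoxc4 (9.94 CPM), Hoxa9 (9.86 CPM) and Hoxb3 (9.75 CPM) came next. At the tail end of the paralogue series, the lead peaks reached 2.88 CPM for Hoxd13 and 3.05 for Hoxd12, genes of digit and genital development, 5.31 for Hoxa13, 5.79 for Hoxb13, 6.9 for Hoxc13 and 8.07 CPM for Hoxc12.

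Summed over a cluster under TMM scaling, Hoxa and Hoxb were lower in both Fra2 groups than in their controls, although after the gene-end scaling of the next paragraph the median early log2 fold change of Hoxa peaks is 0.04. Hoxb had 442, 464 and 446 CPM in early Fra2, 455, 459 and 495 in late Fra2, 456, 471 and 474 in Ezh2 inhibitor, 536, 595 and 554 in late control, and 509, 518 and 571 CPM in early control cells. Hoxa had 255, 252 and 260 CPM in early Fra2, 270, 264 and 263 in late Fra2, 264, 272 and 285 in Ezh2 inhibitor, 299, 311 and 319 in late control, and 288, 292 and 267 CPM in early control cells. In both clusters each Fra2 group lay wholly below its own control. Hoxc averaged 397 ± 14.8 CPM in early Fra2 and 399 ± 6.35 in late Fra2, 398 ± 13.3 in Ezh2 inhibitor, 453 ± 15.5 in late control and 434 ± 30.3 CPM in early control cells (SD, n = 3 each). Hoxd averaged 95.1 ± 0.414 CPM in early Fra2, 88.9 ± 5.11 in late Fra2, 96.9 ± 2.39 in Ezh2 inhibitor, 92.0 ± 6.53 in late control and 104 ± 7.03 CPM in early control cells (SD, n = 3 each), and late Fra2 and late control overlap. Among all reads in peaks, Hox peaks took 0.116 to 0.121% in early Fra2, 0.12 to 0.128% in late Fra2, 0.123 to 0.129% in Ezh2 inhibitor, 0.138 to 0.14% in late control and 0.128 to 0.142% in early control libraries. These shares rest on the library total, and in bulk cells a site open in fewer cells and a site less open in each cell cannot be told apart.

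The share of reads that fell in gene-end peaks of all genes moved with the groups too, at 20.7 to 21.9% in early Fra2, 20.4 to 20.9% in late Fra2, 22.5 to 22.7% in Ezh2 inhibitor, 22.7 to 24.8% in late control and 23.0 to 25.9% in early control libraries. Directions of Hox peaks therefore depend on the scaling, and each main result is also given after a scaling on gene-end and promoter peaks alone, called gene-end scaling. Over all peaks that scaling gave median log2 fold changes of 0.16 for early Fra2, 0.21 for late Fra2 and 0.14 for the Ezh2 inhibitor, against −0.03, −0.01 and 0.0 with TMM over all peaks.

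In early Fra2 cells, 5 Hox peaks were called higher and 23 lower than in early control cells, and after gene-end scaling 17 were called higher and 1 lower. A call is an adjusted p under 0.05 from edgeR's quasi-likelihood F-test, adjusted by Benjamini-Hochberg over all 206349 peaks tested, and all 297 Hox peaks were tested. Over all peaks 10.1% were called higher and 4.92% lower, against 1.68% and 7.74% of the Hox peaks. After gene-end scaling 18.3% of all peaks were called higher and 1.52% lower. The median Hox log2 fold change was −0.21 beside −0.03 over all peaks, and −0.01 beside 0.16 after gene-end scaling. Thus Hox peaks sat below the typical peak, while their sign hangs on the scaling. A change of scaling moves all peaks nearly alike, so the similar gap under both scalings is no further test. Without early control 2, 9 Hox peaks were called lower, and without early Fra2 2, 12. The 5 higher calls became 3 without early Fra2 1, early Fra2 2, early control 2 or any 1 of the late Fra2 or Ezh2 inhibitor libraries, and the last 6 act only through the shared spread. Without early control 3, the library that stands apart, 24 were called lower. Simulated peaks with a log2 change of 1 were recovered in 28% of cases and those with a change of 2 in 95%. Smaller changes at a single peak may thus often go undetected. The simulation set the same spread for every peak and fitted early Fra2 and early control alone, so these rates are only a rough guide to the test used here.

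The counts are given next by position. Of the 97 gene-end Hox peaks, 0 were called higher and 11 lower, against 2.18% higher and 7.87% lower over all gene-end peaks, and their median log2 fold change of −0.27 stands beside −0.22. Of the 108 gene-body Hox peaks, 3 were called higher and 10 lower (background 10.0% and 4.99%), with a median of −0.25 beside −0.02. Of the 92 peaks outside genes, 2 were called higher and 2 lower (background 12.7% and 3.87%), with a median of −0.08 beside 0.06. The Hox median thus stood closer to that of all peaks of its kind at gene ends than in gene bodies or outside genes.

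**Figure D2:**
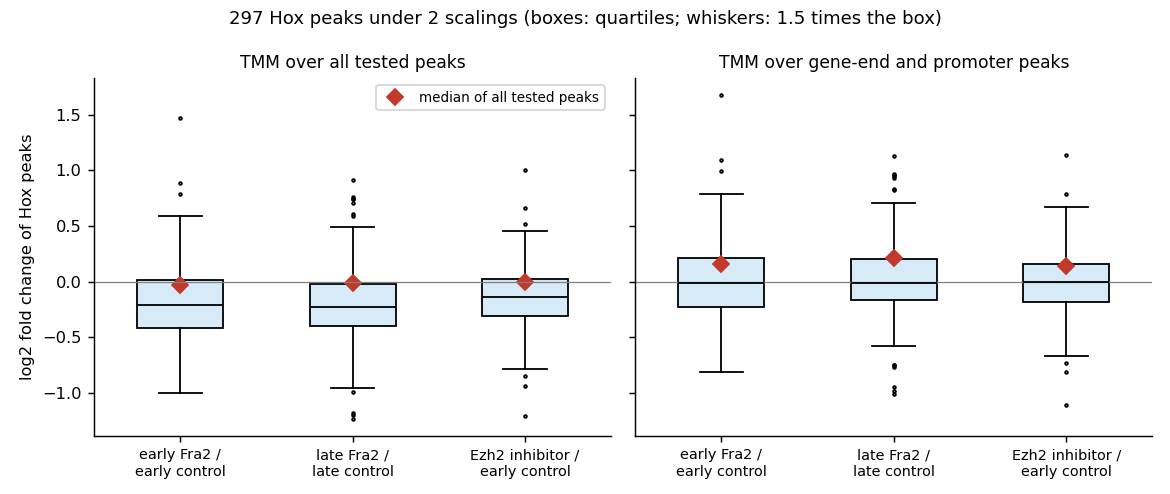
Box plots of the log2 fold changes of the 297 Hox peaks in 3 comparisons under TMM scaling over all peaks and under scaling on gene-end and promoter peaks, with the median of all peaks marked for each. The Hox median for early Fra2 is −0.21 under the first and −0.01 under the second. In each comparison the Hox median lies below the all-peak median, a gap that a change of scaling leaves nearly unchanged.

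By cluster, the share of peaks called lower in early Fra2 was 3.03% of 66 in Hoxa, 9.26% of 108 in Hoxb, 9.28% of 97 in Hoxc and 7.69% of 26 in Hoxd, and differences between clusters were not tested. Hoxb had 2 peaks higher and 10 lower with a median log2 fold change of −0.29 (−0.09 after gene-end scaling), Hoxc 2 higher and 9 lower with −0.18 (0.02 after gene-end scaling), Hoxa 1 higher and 2 lower with −0.16 (0.04 after gene-end scaling), and Hoxd 0 higher and 2 lower with 0.01 (0.21 after gene-end scaling). By paralogue number, 6 of 61 peaks of group 3 and 6 of 32 peaks of group 6 were lower, and 2 of group 3 were higher. Over all peaks 4.92% were lower and 10.1% higher. Group 6 had the lowest median, −0.36, together with group 8, also −0.36, while group 12 had 0.05. After gene-end scaling these medians were −0.17, −0.16 and 0.25. Summed over Hoxa6, Hoxb6 and Hoxc6, accessibility was 169, 166 and 146 CPM in early Fra2 against 198, 205 and 189 CPM in early control cells, with no overlap. Paralogue group 13, the tail-most, had 2 of 26 peaks higher and 0 lower. The lower peaks belonged to 11 genes.

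**Figure D3:**
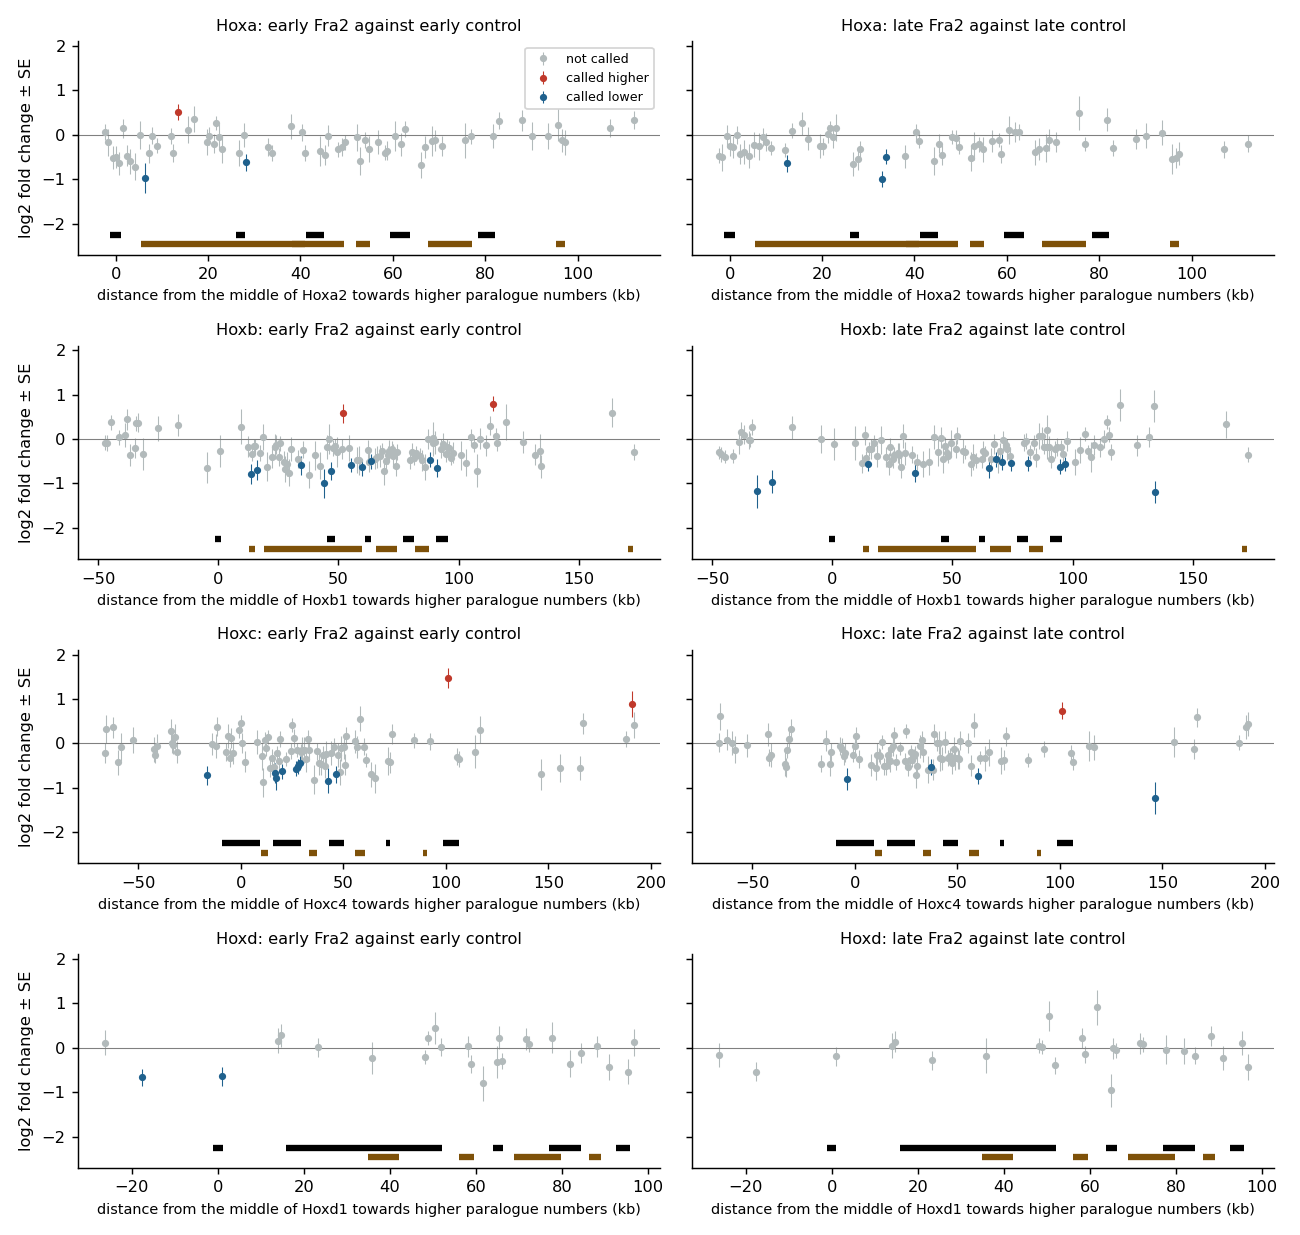
Log2 fold change of each Hox peak against its position along the Hoxa, Hoxb, Hoxc and Hoxd clusters, in early and late Fra2, each against the control of its time; bars mark gene intervals, red points peaks called higher and blue points peaks called lower under TMM scaling over all peaks. In early Fra2 10 of 108 Hoxb peaks and 9 of 97 Hoxc peaks are blue, in late Fra2 12 and 4, and 2 peaks, in Hoxc13 and Hoxb3, are coloured alike in both.

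The largest rise lay in Hoxc13, a gene needed for hair and nails. Its gene-body peak (chromosome 15, 102926166 to 102926667) had 6.6, 5.44 and 6.34 CPM in early Fra2, 6.63, 4.59 and 7.0 in late Fra2, 3.3, 2.81 and 3.03 in Ezh2 inhibitor, 4.93, 3.44 and 2.68 in late control, and 2.58, 2.47 and 1.12 CPM in early control cells. Every early Fra2 library exceeded every early control library, and late Fra2 and late control overlap. The log2 fold change in early Fra2 against early control was 1.47 ± 0.23 SE (edgeR adjusted p = 4.36e-06). The call stood under all 22 alternative settings and left-out libraries, gene-end scaling included. In late Fra2 against late control it was 0.74 ± 0.20 SE (edgeR adjusted p = 0.0138), a call lost without late Fra2 1, late Fra2 3, late control 2 or late control 3. A second Hoxc13 peak, 84.6 kb outside the gene (102836242 to 102836743), had 2.85, 3.28 and 4.61 CPM in early Fra2 against 1.61, 1.96 and 2.38 CPM in early control cells (log2 fold change 0.89 ± 0.29 SE, edgeR adjusted p = 0.0276), again without overlap.

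The other calls above control lay in Hoxb9, Hoxb3 and Hoxa3. A peak 18.6 kb outside Hoxb9 (chromosome 11, 96252526 to 96253027) had 10.2, 9.59 and 8.0 CPM in early Fra2, 7.79, 8.91 and 8.1 in late Fra2, 6.37, 5.81 and 6.95 in Ezh2 inhibitor, 6.27, 5.85 and 6.76 in late control, and 5.21, 6.1 and 4.62 CPM in early control cells. Both Fra2 groups lay above their controls without overlap, and the early log2 fold change was 0.79 ± 0.17 SE (edgeR adjusted p = 0.000575). The late one, 0.39 (edgeR adjusted p = 0.101), was not called. The early call stood under all 22 alternatives. Single peaks in Hoxb3 (96314644, log2 fold change 0.58 ± 0.21 SE, edgeR adjusted p = 0.0468) and Hoxa3 (52176835, 0.51 ± 0.18 SE, edgeR adjusted p = 0.0458) were close to the threshold and lost their call in 15 and 14 of the 22 alternatives.

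**Figure D4:**
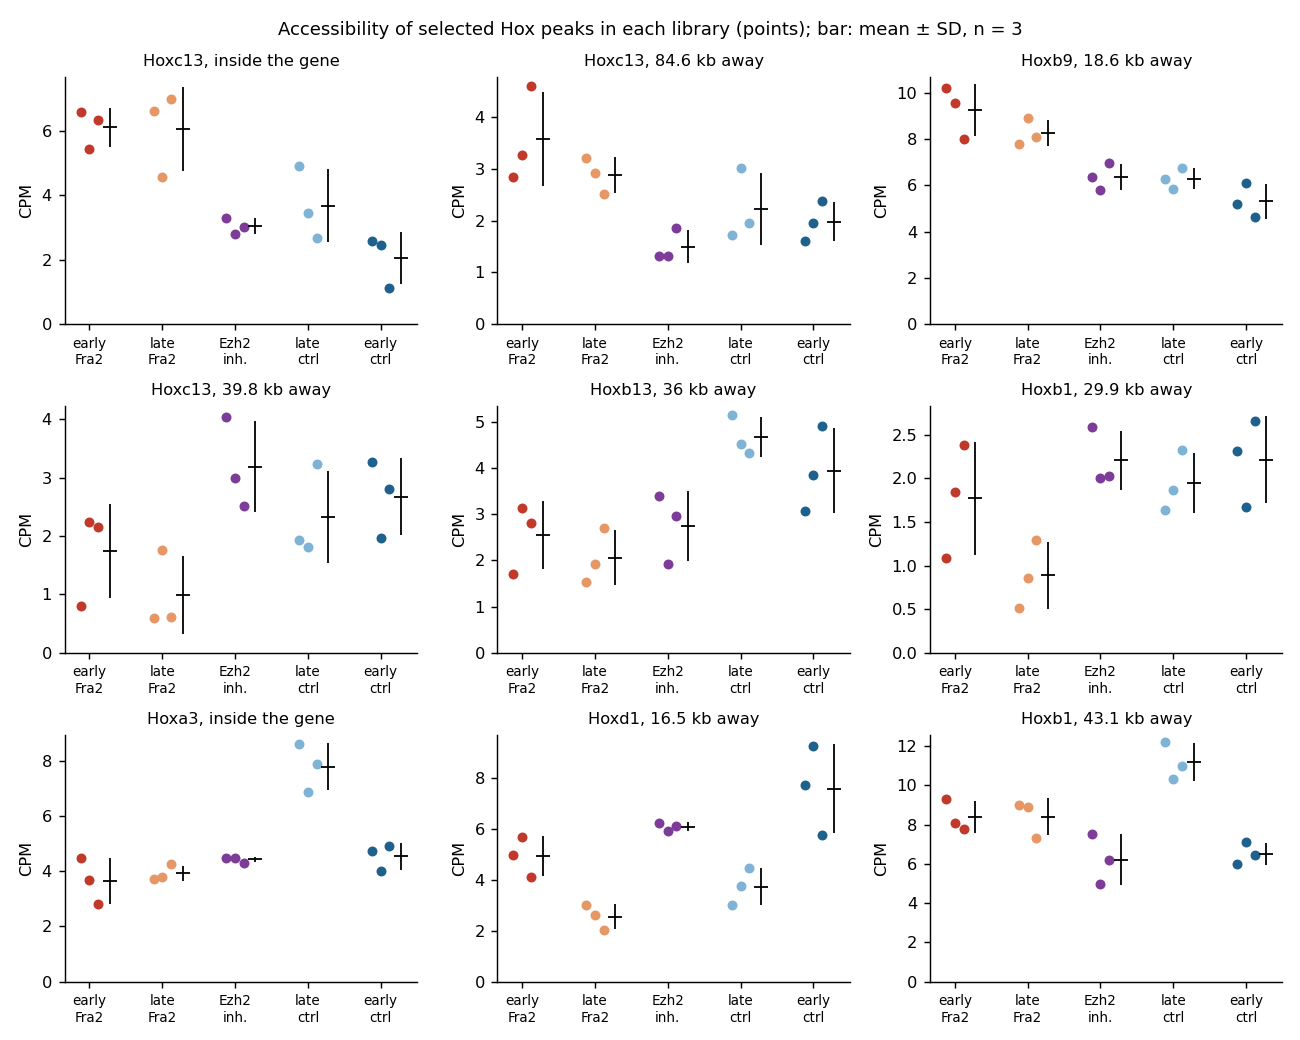
Level in CPM of 9 Hox peaks in each library (points) with the group mean and SD (bars and whiskers), for early Fra2, late Fra2, Ezh2 inhibitor, late control and early control, 3 libraries each. The Hoxc13 gene-body peak reaches 5.44 to 6.6 CPM in early Fra2 against 1.12 to 2.58 CPM in early control, and the Hoxd1 distal peak lies at 4.11 to 5.68 CPM in early Fra2 against 5.74 to 9.22 CPM in early control.

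All 23 lower calls in early Fra2 lay in paralogue groups 1 to 9, which hold 243 of the 297 Hox peaks (81.8%), under TMM scaling. In late Fra2 these groups held 16 of the 19 lower calls, and groups 10 to 13 the other 3. The lower call of largest size in early Fra2 was that of a gene-body peak of Hoxb3, a gene of hindbrain and neck patterning (chromosome 11, 96322663 to 96323164), with 1.04, 1.6 and 2.09 CPM in early Fra2 against 2.47, 3.12 and 3.92 CPM in early control cells (log2 fold change −1.0 ± 0.32 SE, edgeR adjusted p = 0.0255). A Hoxa3 gene-end peak (chromosome 6, from 52169773) had 1.09, 1.2 and 1.59 CPM in early Fra2 and 1.4, 3.7 and 2.66 CPM in early control cells, an overlap. Its difference on the log2 scale, −0.98 ± 0.34 SE (edgeR adjusted p = 0.042), came to −0.54 without early control 2. A Hoxc9 gene-end peak (chromosome 15, from 102984498), in a gene of thoracic motor neuron identity, had 1.61, 1.76 and 1.8 CPM in early Fra2 against 2.47, 3.77 and 3.08 CPM in early control cells (−0.84 ± 0.28 SE, edgeR adjusted p = 0.0331). Only the Hoxa3 peak of these overlaps between groups.

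Hoxc6 held 6 of the lower calls. They ran from 102998521 to 103010558 on chromosome 15, with log2 fold changes of −0.77 to −0.45. The lead peak had 16.1, 13.3 and 10.1 CPM in early Fra2, 16.1, 11.7 and 15.1 in late Fra2, 14.6, 12.8 and 13.5 in Ezh2 inhibitor, 14.9, 22.4 and 18.0 in late control, and 20.8, 18.1 and 17.9 CPM in early control cells (early Fra2 against early control −0.52 ± 0.17 SE, edgeR adjusted p = 0.0253). Early Fra2 lay wholly below early control there, while late Fra2 and late control overlap. The largest of the 6, at 103009979 (−0.77 ± 0.27 SE, edgeR adjusted p = 0.0434), came to −0.40 without early control 2, and the smallest, at 102998521 (−0.45, edgeR adjusted p = 0.0469), lost its call in 16 of 22 alternatives. In the same cluster, a peak 7.2 kb outside Hoxc4 (103043808 to 103044309) had 2.94, 2.64 and 2.88 CPM in early Fra2 against 5.21, 4.06 and 4.62 CPM in early control cells (−0.72 ± 0.21 SE, edgeR adjusted p = 0.0121). Its groups are well apart.

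Among the head-level genes, Hoxb2, Hoxb4 and Hoxd1 also had lower peaks. A Hoxb2 gene-end peak (chromosome 11, 96353112 to 96353613), in a gene of facial motor neuron patterning, had 3.94, 2.0 and 2.09 CPM in early Fra2 against 4.29, 4.28 and 6.58 CPM in early control cells (−0.79 ± 0.23 SE, edgeR adjusted p = 0.0144). A peak of Hoxb4, a gene also known for blood stem cell expansion, fell by 0.72 on the log2 scale (± 0.21 SE, edgeR adjusted p = 0.0119). The Hoxd1 promoter peak (chromosome 2, 74762759 to 74763260), over the CG-rich bases printed above, had 4.18, 2.72 and 3.31 CPM in early Fra2 against 4.51, 6.31 and 5.6 CPM in early control cells (−0.64 ± 0.21 SE, edgeR adjusted p = 0.0309). A site 16.5 kb outside Hoxd1 (74781346 to 74781847) had 4.98, 5.68 and 4.11 CPM in early Fra2 against 7.73, 9.22 and 5.74 CPM in early control cells (−0.66 ± 0.19 SE, edgeR adjusted p = 0.0104). The near and the distal Hoxd1 site were thus both lower in early Fra2. Of the 28 early calls, 6 were kept after gene-end scaling.

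In late Fra2 cells, 1 Hox peak was called higher and 19 lower than in late control cells, and after gene-end scaling 5 were called higher and 4 lower. Over all peaks 6.44% were called higher and 3.54% lower, against 0.337% and 6.4% of Hox peaks, and after gene-end scaling 16.3% and 0.979% of all peaks. The median Hox log2 fold change was −0.23 beside −0.01 over all peaks, and −0.01 beside 0.21 after gene-end scaling. At gene ends 0 Hox peaks were called higher and 6 lower (background 1.25% and 8.99%), in gene bodies 1 and 8 (background 6.37% and 3.13%), and outside genes 0 and 5 (background 8.24% and 2.25%). Hoxb again had most lower calls, 12, with a median of −0.27 (−0.05 after gene-end scaling), followed by Hoxc with 4 (median −0.23, and −0.01 after gene-end scaling), Hoxa with 3 (−0.25 and −0.03) and Hoxd with 0 (−0.05 and 0.17). The count of lower peaks leaned on single libraries: it was 6 without late Fra2 1, 9 without late Fra2 2, 8 without late control 2, 9 without late control 3 and 34 without early control 3, which enters only through the shared estimate of the spread. The 1 higher call became 2 without early control 3 and was lost without late Fra2 1, late Fra2 3, late control 2 or late control 3.

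A Hoxb13 site and a Hoxa3 site carried the late calls that stood under all 22 alternatives. The first lies 36.0 kb outside Hoxb13, a gene of the tail and prostate (chromosome 11, 96232366 to 96232867), and had 1.71, 3.12 and 2.81 CPM in early Fra2, 1.54, 1.92 and 2.7 in late Fra2, 3.38, 1.91 and 2.95 in Ezh2 inhibitor, 5.15, 4.52 and 4.33 in late control, and 3.06, 3.85 and 4.9 CPM in early control cells. Its log2 fold change in late Fra2 against late control was −1.20 ± 0.25 SE (edgeR adjusted p = 0.000829), and −0.98 after gene-end scaling (edgeR adjusted p = 0.00638). The Hoxa3 gene-body peak (chromosome 6, 52196363 to 52196864) had 4.46, 3.68 and 2.81 CPM in early Fra2, 3.72, 3.79 and 4.24 in late Fra2, 4.48, 4.49 and 4.31 in Ezh2 inhibitor, 8.59, 6.88 and 7.86 in late control, and 4.72, 3.99 and 4.9 CPM in early control cells (late Fra2 against late control −0.99 ± 0.18 SE, edgeR adjusted p = 0.000122). The Hoxa3 site lies between Hoxa4 and Hoxa5, within the long annotated Hoxa3 interval. The late control libraries stood above all other 12 at this site. Both sites separate late Fra2 from late control without overlap.

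Further late calls fell at Hoxb1, Hoxc10 and Hoxb2. Peaks 29.9 and 23.7 kb outside Hoxb1 were both lower, with 0.514, 0.853 and 1.29 CPM in late Fra2 against 1.64, 1.87 and 2.32 CPM in late control (−1.18 ± 0.37 SE, edgeR adjusted p = 0.0317) at the first. The second had 1.97, 2.67 and 1.41 CPM in late Fra2 against 4.93, 4.34 and 2.68 CPM in late control (−0.96 ± 0.26 SE, edgeR adjusted p = 0.0102). The gene end of Hoxc10, a gene of lumbar identity (chromosome 15, 102966979 to 102967480), had 3.72, 3.41 and 3.07 CPM in late Fra2 against 5.68, 5.01 and 6.46 CPM in late control cells (−0.74 ± 0.18 SE, edgeR adjusted p = 0.00596). A Hoxb2 gene-end peak (chromosome 11, 96351909 to 96352410) had 8.73, 6.93 and 7.86 CPM in late Fra2 against 10.5, 12.9 and 11.6 CPM in late control cells (−0.57 ± 0.15 SE, edgeR adjusted p = 0.0101). It is neither of the 2 Hoxb2 peaks called lower in early cells, which in late Fra2 against late control had log2 fold changes of 0.08 (96353112, edgeR adjusted p = 0.851) and −0.23 (96350681, edgeR adjusted p = 0.53). A Hoxc13 site 39.8 kb outside the gene (chromosome 15, 102881053 to 102881554) had 0.599, 1.76 and 0.614 CPM in late Fra2 against 1.94, 1.81 and 3.23 CPM in late control cells (−1.24 ± 0.36 SE, edgeR adjusted p = 0.0192), opposite in sign to the Hoxc13 gene-body peak. The call at this distal Hoxc13 site was lost after gene-end scaling and without late Fra2 1, late Fra2 3 or late control 3. In total the lower peaks belonged to 12 genes. Of the 20 late calls, 5 were kept after gene-end scaling.

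The early and late Fra2 comparisons share no library, and 2 Hox peaks were called in the same direction in both, which is 7.14% of the 28 early calls and 10.0% of the 20 late calls. Over all peaks 28.9% of the early calls and 43.5% of the late calls were called in the same direction in both, and the difference between these shares was not tested. One is the Hoxc13 gene-body peak, higher in both. The other is a Hoxb3 gene-body peak (chromosome 11, 96332441 to 96332942), with 3.42, 4.72 and 3.03 CPM in early Fra2, 3.51, 2.72 and 2.82 in late Fra2, 3.21, 4.4 and 3.42 in Ezh2 inhibitor, 5.68, 5.19 and 4.63 in late control, and 5.74, 4.57 and 6.58 CPM in early control cells. Its log2 fold change was −0.59 ± 0.21 SE in early cells (edgeR adjusted p = 0.0428) and −0.76 ± 0.20 SE in late cells (edgeR adjusted p = 0.0102). Of the 23 early lower peaks, 22 had a log2 fold change below 0 in late cells, and of the 19 late lower peaks, 18 were below 0 in early cells, under TMM scaling, where 227 and 217 of all 297 Hox peaks were below 0. The difference between the Fra2 effects of late and early cells, tested directly in edgeR, gave 0 Hox peaks higher and 0 lower, with 13 at an unadjusted p under 0.05 and 0 with DESeq2's Wald test. Over all peaks 0.0116% were called higher and 0.0819% lower in that test. No Hox peak's Fra2 effect was therefore shown to differ between times, and the smallest adjusted p was 0.174 (edgeR), for a Hoxb1 site 43.1 kb away.

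Counts were also summed over all peaks of each gene. In early Fra2 against early control, 0 of 38 Hox genes were called higher and 9 lower by edgeR (background over 18310 genes 14.4% and 12.2%), and after gene-end scaling 5 were called higher and 0 lower (background 33.5% and 1.84%). The 9 were Hoxb2, Hoxb3, Hoxb5, Hoxb6, Hoxb7, Hoxb8, Hoxc6, Hoxc9 and Hoxd1, with log2 fold changes of −0.46 (Hoxd1) to −0.24 (Hoxc6) under TMM scaling. The Hoxb cluster thus held 6 of them. Hoxb3 summed to 88.1, 99.0 and 103 CPM in early Fra2, 101, 106 and 114 in late Fra2, 106, 112 and 109 in Ezh2 inhibitor, 125, 138 and 118 in late control, and 111, 123 and 136 CPM in early control cells (early Fra2 against early control −0.34 ± 0.07 SE, edgeR adjusted p = 0.00112). Each Fra2 group lay below its control at Hoxb3, and the Ezh2 inhibitor and early control groups overlap. After gene-end scaling the 5 called higher were Hoxa11 (0.43), Hoxb1 (0.25), Hoxc4 (0.21), Hoxc13 (0.28) and Hoxd3 (0.24), none of them among the 9. Without early Fra2 1, 5 genes were called lower, and without early control 3, 1 gene was called higher and 7 lower.

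In late Fra2 against late control, 0 genes were called higher and 4 lower (background 13.4% and 10.6%), and after gene-end scaling 3 higher and 0 lower (background 35.0% and 2.29%). The share of Hox genes called lower under TMM scaling was thus near that of all genes. The 4 lower genes were Hoxa3 (−0.14 ± 0.05 SE, and 0.00 after gene-end scaling), Hoxb2 (−0.26 ± 0.09 SE), Hoxb3 (−0.25 ± 0.07 SE) and Hoxb6 (−0.28 ± 0.08 SE), with edgeR adjusted p between 0.0101 and 0.0348. Hoxb6, a trunk-level gene, summed to 47.5, 51.8 and 48.6 CPM in early Fra2, 53.7, 53.2 and 59.7 in late Fra2, 50.3, 54.2 and 57.6 in Ezh2 inhibitor, 70.4, 65.1 and 66.7 in late control, and 55.8, 61.3 and 73.1 CPM in early control cells. Hoxb2, Hoxb3 and Hoxb6 were lower in both Fra2 comparisons under TMM scaling, and none of them was called under gene-end scaling. The 4 lower genes became 1 without late Fra2 1, late Fra2 2 or late control 2 and 2 without late control 3. They became 7 without early control 1 and 9 without early control 3, which act only through the shared spread.

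**Figure D5:**
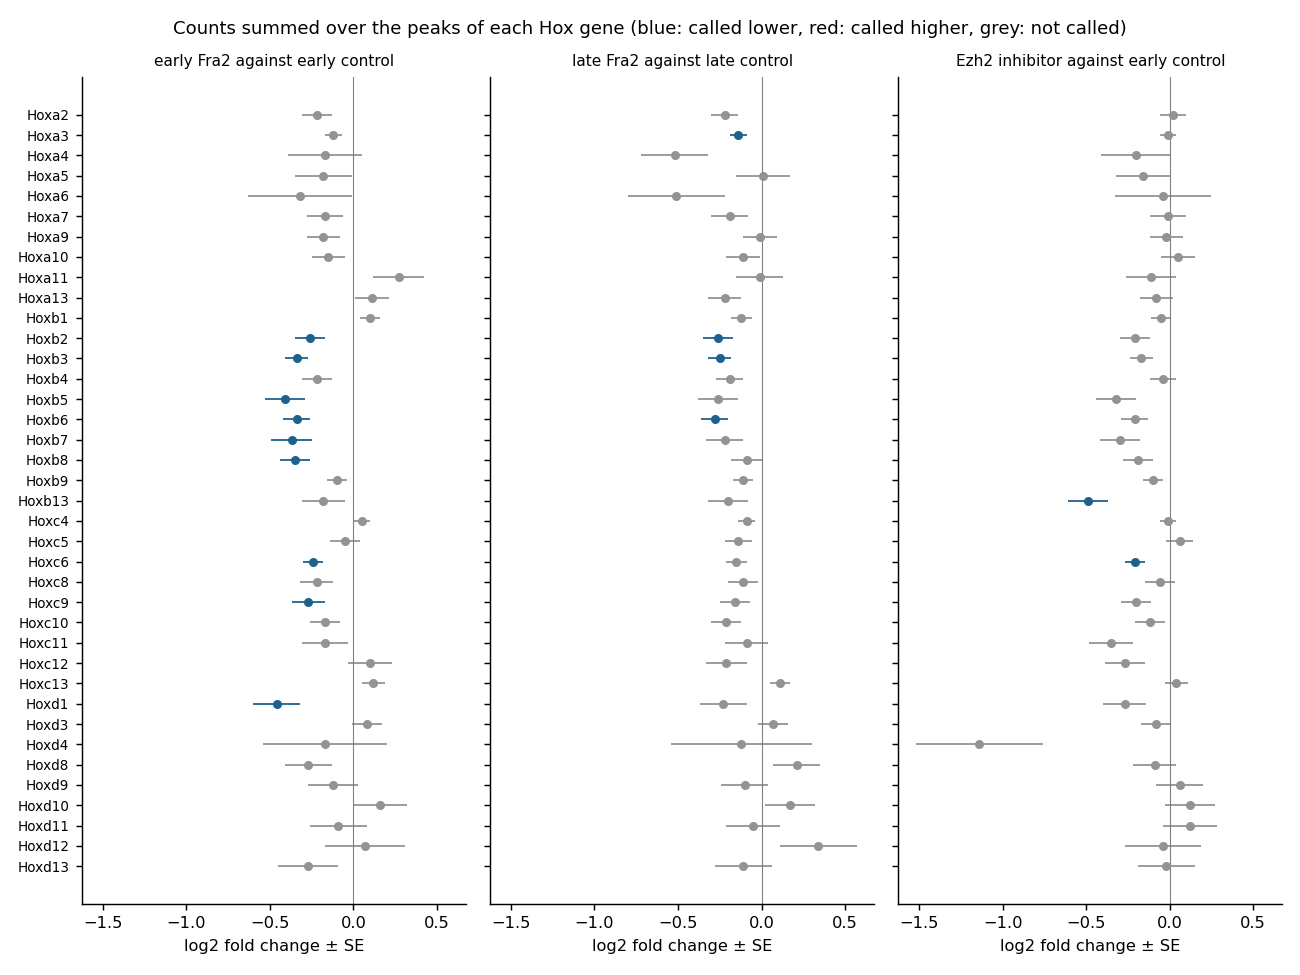
Log2 fold change (point) ± SE (whisker) of the counts summed over the peaks of each of the 38 Hox genes in 3 panels: early Fra2 and Ezh2 inhibitor each against early control, and late Fra2 against late control, under TMM scaling over all peaks. Hoxb2 to Hoxb8 lie left of 0 in early Fra2, with Hoxb5 at −0.41, though none is called lower after gene-end scaling, and the point farthest left in the inhibitor panel is Hoxd4 at −1.14, with the widest error.

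In Ezh2 inhibitor cells no Hox peak passed the threshold under TMM scaling. Against early control, 0 of 297 peaks were called higher and 0 lower by edgeR (background 0.552% and 0.341%), and DESeq2's Wald test also called 0. By edgeR 32 had an unadjusted p under 0.05, of which 4 were higher and 28 lower. After gene-end scaling 1 was called higher and 0 lower (background 3.54% and 0.262%). The median Hox log2 fold change was −0.14 beside 0.0 over all peaks, and 0.0 beside 0.14 after gene-end scaling. Cluster medians were −0.05 for Hoxa, −0.21 for Hoxb, −0.14 for Hoxc and −0.09 for Hoxd under TMM scaling. Without early control 3, 4 Hox peaks were called lower and 1 higher, and without early control 1 or early control 2, 1 was called lower.

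The Hox peak nearest to a call in inhibitor cells lay in Hoxc6 (−0.59 ± 0.16 SE on the log2 scale, edgeR adjusted p = 0.0578). The gene end of Hoxc11 (chromosome 15, 102954378 to 102954879) had 2.02, 2.72 and 2.6 CPM in Ezh2 inhibitor against 4.56, 3.92 and 4.2 CPM in early control cells (−0.79 ± 0.23 SE, edgeR adjusted p = 0.07). That of Hoxb13 (chromosome 11, from 96194018) had 3.65, 4.99 and 4.35 CPM in Ezh2 inhibitor against 6.39, 6.82 and 6.3 CPM in early control cells (−0.59 ± 0.17 SE, edgeR adjusted p = 0.0769). The Hoxa13 promoter peak (chromosome 6, 52260673 to 52261174), which covers the printed Hoxa13 bases, had 2.28, 2.16 and 3.1 CPM in early Fra2, 2.48, 2.29 and 2.46 in late Fra2, 1.23, 1.72 and 1.44 in Ezh2 inhibitor, 2.39, 3.14 and 4.14 in late control, and 2.36, 3.05 and 3.22 CPM in early control cells. The inhibitor libraries were the 3 lowest of the 15 there, and against early control the log2 fold change came to −0.94 ± 0.28 SE (edgeR adjusted p = 0.0785). Hoxd4, whose single peak is among the weakest, had 0.923, 1.54 and 1.2 CPM in Ezh2 inhibitor against 1.82, 2.61 and 4.62 CPM in early control cells (−1.21 ± 0.37 SE, edgeR adjusted p = 0.0821). In the other direction a Hoxd11 gene-end peak, picked after its values were seen, had 2.55, 3.81 and 2.72 CPM in Ezh2 inhibitor against 1.56, 1.23 and 1.82 CPM in early control cells (1.0 ± 0.32 SE, edgeR adjusted p = 0.1). At each of these peaks the Ezh2 inhibitor and early control libraries do not overlap, but none of the peaks was called. For peaks named because they came near a call, a lack of overlap is no further test.

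On summed counts, 0 of 38 genes were higher and 2 lower in inhibitor than in early control cells by edgeR (background 2.36% and 2.66%), with 0 higher and 1 lower after gene-end scaling (background 15.5% and 0.644%). Hoxb13 summed to 10.1, 11.3 and 9.93 CPM in Ezh2 inhibitor against 13.3, 14.8 and 16.5 CPM in early control cells (−0.49 ± 0.12 SE, edgeR adjusted p = 0.026), and the call stood after gene-end scaling (−0.38, edgeR adjusted p = 0.0485). Early Fra2 cells, with 10.9, 13 and 15 CPM, overlap with early control at Hoxb13. Late Fra2 cells had 13.6, 14.9 and 14.2 CPM against 16.4, 16.5 and 16.1 CPM in late control cells, wholly below them but without a call. Hoxc6 summed to 128, 126 and 134 CPM in Ezh2 inhibitor against 150, 156 and 139 CPM in early control cells (−0.21 ± 0.06 SE, edgeR adjusted p = 0.0369). The 2 lower genes became 0 without early control 2 or any 1 of the inhibitor libraries, and 1 without late Fra2 1, late Fra2 2 or late control 3.

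Late and early control cells differed at few Hox peaks. In late control against early control, 2 peaks were called higher and 2 lower (background 2.04% and 1.23%), with a median of 0.06 beside −0.01 over all peaks, and 4 higher and 2 lower after gene-end scaling (background 3.62% and 0.978%). Without early control 1, 4 were called higher, and without late control 1 or late control 2, 1 was called lower. The distal Hoxd1 site described above had 2.99, 3.74 and 4.45 CPM in late control against 7.73, 9.22 and 5.74 CPM in early control cells, with 3.0, 2.61 and 2.03 CPM in late Fra2 and 6.24, 5.9 and 6.1 CPM in Ezh2 inhibitor cells. Its log2 fold change in late against early control was −1.04 ± 0.19 SE (edgeR adjusted p = 0.000693), a call that stood under all 22 alternatives. Summed Hoxd1 counts were also lower, at 10.4, 9.15 and 11.9 CPM in late control against 15.2, 19.8 and 16.0 CPM in early control cells (−0.70 ± 0.14 SE, edgeR adjusted p = 0.00462), as were those of Hoxd8 (−0.49 ± 0.14 SE, edgeR adjusted p = 0.0428). In the opposite direction, a site 43.1 kb outside Hoxb1 (chromosome 11, 96411141 to 96411642) had 12.2, 10.3 and 11.0 CPM in late control against 6.01, 7.11 and 6.44 CPM in early control cells (0.78 ± 0.17 SE, edgeR adjusted p = 0.00377). The Hoxa3 site that was lower in late Fra2 was higher in late control than in early control cells (0.78 ± 0.18 SE, edgeR adjusted p = 0.00821), as was the Hoxa3 sum (0.18 ± 0.05 SE, edgeR adjusted p = 0.035). That comparison and the one of late Fra2 use the same late control libraries. Likewise the Hoxd1 site and sum, called lower in early Fra2 too, were set against the same early control libraries in both comparisons. Among summed genes 1 was called higher and 2 lower (background 2.49% and 2.16%).

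Early Fra2 and Ezh2 inhibitor cells differed at 18 Hox peaks, 12 higher and 6 lower in early Fra2 (background 9.02% and 5.2%), and 16 were higher and 4 lower after gene-end scaling (background 10.8% and 3.5%). Most of the higher ones, 9, lay outside genes, where 9.78% of Hox peaks were called higher against 11.5% of all such peaks. Outside Hoxb1 a site at 15.6 kb (chromosome 11, 96383586 to 96384087) had 5.22, 4.32 and 4.68 CPM in early Fra2 against 2.29, 2.59 and 1.55 CPM in Ezh2 inhibitor cells (1.16 ± 0.25 SE, edgeR adjusted p = 0.000595). Outside Hoxb13 a site at 6.8 kb (96203157 to 96203658) had 2.66, 2.0 and 2.81 CPM in early Fra2 against 0.835, 1.32 and 0.932 CPM in Ezh2 inhibitor cells (1.28 ± 0.33 SE, edgeR adjusted p = 0.00405). The Hoxc13 gene-body peak (1.01 ± 0.20 SE, edgeR adjusted p = 0.000245), the Hoxc13 site at 84.6 kb (1.23 ± 0.27 SE, edgeR adjusted p = 0.000983), with 1.32, 1.32 and 1.86 CPM in Ezh2 inhibitor cells, and a Hoxb9 site at 17.2 kb (0.85 ± 0.21 SE, edgeR adjusted p = 0.00335) were also higher in early Fra2.

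The Hoxa13 promoter peak was higher in early Fra2 as well (0.77 ± 0.28 SE, edgeR adjusted p = 0.0478), a call lost in 13 of 22 alternatives. Lower in early Fra2 were the site 7.2 kb outside Hoxc4, with 2.94, 2.64 and 2.88 CPM in early Fra2 against 5.36, 5.81 and 6.41 CPM in Ezh2 inhibitor cells (−1.05 ± 0.19 SE, edgeR adjusted p = 5.64e-05), and the gene end of Hoxc5, with 0.997, 1.2 and 1.59 CPM in early Fra2 against 2.33, 2.77 and 2.52 CPM in Ezh2 inhibitor cells (−1.03 ± 0.30 SE, edgeR adjusted p = 0.014). A Hoxb3 gene-body peak fell by 1.04 on the log2 scale (± 0.28 SE, edgeR adjusted p = 0.00631). Of the 18 calls 6 stood under all 22 alternatives: those of both Hoxc13 peaks, the Hoxb1, Hoxb13 and Hoxb9 sites, and the Hoxc4 site. Without Ezh2 inhibitor 2, 5 were called higher and 1 lower, and without early Fra2 1, 6 were called higher. The lower calls became 3 without Ezh2 inhibitor 3 and 13 without early control 3, which is in neither group. Summed over peaks, Hoxa2 was lower (−0.24 ± 0.08 SE, edgeR adjusted p = 0.0475) and Hoxc12 higher (0.37 ± 0.12 SE, edgeR adjusted p = 0.0388), 1 gene each way beside a background of 9.43% higher and 5.89% lower.

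Among the peaks without a call that lay over a RefSeq promoter window found here, that of Hoxa3 was the most accessible. Genes without such a window are outside this ranking, among them Hoxb9, whose gene-end lead peak averaged 15.2 CPM. The Hoxa3 promoter peak (chromosome 6, 52213097 to 52213598), which starts within the printed Hoxa3 bases, had 9.68, 10.2 and 9.94 CPM in early Fra2, 10.6, 10.7 and 10.8 in late Fra2, 12.1, 11.3 and 13 in Ezh2 inhibitor, 12.1, 12.4 and 14.3 in late control, and 12.7, 13.1 and 6.44 CPM in early control cells. This peak lies at the far end of the long Hoxa3 interval, between Hoxa6 and Hoxa7. The low early control value is that of early control 3, the shallow library, and leaves the early groups overlapping, while late Fra2 lay wholly below late control. The Hoxa5 and Hoxd9 promoter peaks averaged 7.51 and 6.27 CPM over all libraries.

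The Hox peaks were also set against the peak lists that the authors called library by library. The same counts over all peaks are not given here, so nothing particular to Hox peaks can be read from them. Of the 297 Hox peaks, 64 overlapped a listed peak with a deposited −log10 q of at least 2 in all 15 libraries, 0 in none, and the median Hox peak was covered in 13 lists. The number covered per library ran from 76 in early control 3 to 282 in Ezh2 inhibitor 3, and the count in all 15 cannot exceed the lowest of these. Hoxc6 had 9 peaks in all 15 lists, Hoxb9 8, Hoxa3 7 and Hoxb1 5. The Hoxc13 gene-body peak was covered in 13 of 15 lists and in 1 of the 3 early control lists.

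Genes that act on or with the Hox genes were described from lists of the pathway, and their counts stand beside the shares of all peaks given above: 10.1% higher and 4.92% lower in early Fra2, 6.44% and 3.54% in late Fra2, and 0.552% and 0.341% in Ezh2 inhibitor cells. After gene-end scaling the shares of all peaks were 18.3% and 1.52%, 16.3% and 0.979%, and 3.54% and 0.262%. TALE cofactors, homeodomain proteins such as those of the Meis family that bind DNA beside Hox proteins, had 264 peaks, of which 21 were higher and 20 lower in early Fra2 and 7 higher and 12 lower in late Fra2, with 0 and 1 in Ezh2 inhibitor cells (40 and 7, 24 and 4, and 5 and 1 after gene-end scaling). The largest early rise was at Meis1 (1.38 ± 0.20 SE). PRC2 genes had 139 peaks, with 11 higher and 12 lower in early Fra2, 8 and 7 in late Fra2, and 1 and 0 in Ezh2 inhibitor cells (20 and 7, 23 and 3, and 7 and 0 after gene-end scaling), and the single inhibitor call lay at Ezh2 itself (0.86 ± 0.18 SE). PRC1 genes, which encode the complex that reads H3K27me3, had 120 peaks, with 2 higher and 16 lower in early Fra2, 1 and 5 in late Fra2 and 0 and 0 in Ezh2 inhibitor cells (7 and 3, 9 and 0, and 1 and 0 after gene-end scaling). The early PRC1 median of −0.25 stands beside −0.21 for the Hox peaks.

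The H3K4 and H3K27 enzymes, among them the Hox activator Kmt2a (MLL) and the demethylase Kdm6b, had 71 peaks, with 8 higher and 8 lower in early Fra2, 4 and 10 in late Fra2 and 1 and 2 in Ezh2 inhibitor cells (13 and 2, 9 and 3, and 2 and 0 after gene-end scaling). Upstream regulators and ParaHox genes, such as the Cdx genes and the retinoic acid receptors that control Hox onset, had 154 peaks, with 15 higher and 11 lower in early Fra2, 9 and 8 in late Fra2 and 2 and 0 in Ezh2 inhibitor cells (22 and 2, 27 and 3, and 4 and 0 after gene-end scaling). One peak of Rarb, a retinoic acid receptor, had the largest early and late change of that list, 1.92 ± 0.25 SE in early Fra2 and 1.62 ± 0.25 SE in late Fra2, and another Rarb peak was called in Ezh2 inhibitor cells (1.07 ± 0.23 SE). Neighbours of the clusters had 213 peaks, with 24 higher and 13 lower in early Fra2, 20 and 6 in late Fra2 and 0 and 0 in Ezh2 inhibitor cells (44 and 5, 45 and 2, and 4 and 0 after gene-end scaling), and Mtx2, beside Hoxd, held the largest early rise (1.84 ± 0.38 SE). Their median early log2 fold change was −0.01, against −0.21 for the Hox peaks beside them.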

How the data were processed

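Omni-ATAC-seq was measured in 15 libraries of mouse embryonic fibroblasts, 3 in each of 5 groups taken from the sample titles. The authors deposited a table of raw counts per consensus peak (206367 peaks, of which 206366 are 502 bp wide) and 15 peak lists. Those lists, as deposited, hold a fold enrichment (a ratio) and −log10 of the p-value and of the q-value for each peak. Per the submitters' processing notes, MACS2 was used and the build was mm10. For the aligner, read shift, multi-mapping reads, counting tool and building of the consensus, the settings were not given in the sources used here.

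Peaks were given to the nearest of 21627 protein-coding RefSeq intervals within 100 kb (182923 peaks), without strand, and a gene-end peak has its centre within 1 kb of either end. edgeR 4.0.16 in R 4.3.3 (quasi-likelihood F-test, TMM, default expression filter removing 18 peaks) was fitted once over all 15 libraries, so all groups share one estimate of the spread, with Benjamini-Hochberg adjustment over 206349 peaks or 18310 summed genes and a threshold of 0.05. SE is the log2 fold change divided by the square root of F. Libraries of one group differed by more than sampling noise, so none was counted as a duplicate. Intervals, floors and p-values take no account of PCR copies. Alternatives were DESeq2 1.42.0, its size factors, cyclic loess (limma 3.58.1), gene-end scaling, no filter, a 10 kb assignment, the compared groups alone, a replicate block and each library left out. The labels do not say whether replicate numbers pair the libraries, and the main fit treats them as unpaired. The test was checked on simulated counts for early Fra2 (206350 peaks, 18310 genes), where genes with a log2 change of 1 were recovered in 87% of cases and with 2 in 99%. Those counts had the same set spread for every peak or gene, and only early Fra2 and early control were fitted. The members and gene lists were chosen with earlier results of these data known. Peaks were named where among the 10 largest called changes per direction and comparison, where the most accessible of their gene, or where over a promoter window, and genes where called on summed counts. Tables and plots were made with Python 3.11.15, pandas 2.3.3, numpy 2.4.6 and matplotlib 3.10.9.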

Additional observations from a re-analysis of the deposited data

How the results depend on the processing

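The Hox counts moved with the scaling, with the groups entering the fit and with single libraries. For early Fra2 against early control, the 5 peaks called higher became 3 with DESeq2, 3 with its size factors, 17 with gene-end scaling, 2 with only the groups compared and 3 within 10 kb, and the 23 called lower became 1 with gene-end scaling and 4 with only the groups compared. For late Fra2 against late control, the 1 called higher became 5 with gene-end scaling, 3 with cyclic loess and 2 with only the groups compared, and the 19 called lower became 4 with gene-end scaling and 32 with only the groups compared. For the Ezh2 inhibitor, gene-end scaling and loess each called 1 higher and loess 9 lower. For late against early control, the 2 called higher became 4 with gene-end scaling, 0 with only the groups compared and 1 within 10 kb, and the 2 called lower became 1 with only the groups compared and 1 within 10 kb. For early Fra2 against the inhibitor, the 12 called higher became 5 within 10 kb, and the 6 called lower became 13 with loess and 15 with only the groups compared.

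Leaving out each library gave 3 to 5 higher and 9 to 25 lower for early Fra2, 0 to 2 and 6 to 34 for late Fra2, 0 to 1 and 0 to 4 for the inhibitor, 2 to 4 and 1 to 2 for late against early control, 5 to 16 and 1 to 13 for early Fra2 against the inhibitor, and 0 throughout for the difference of the Fra2 effects.

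Of summed genes, the 9 lower in early Fra2 became 0 with gene-end scaling (5 higher) and 2 with only the groups compared, and 5 to 10 lower and 0 to 1 higher without 1 library. The 4 lower in late Fra2 became 0 with gene-end scaling (3 higher), 2 within 10 kb and 8 with only the groups compared, and 1 to 9 lower and 0 higher without 1 library. The 2 lower with the inhibitor became 1 with gene-end scaling, 1 within 10 kb, 0 with only the groups compared and 0 to 3 without 1 library. DESeq2 and loess each called 3, as did the replicate block. The summed Hoxa3 change in late Fra2 had no sign left with gene-end scaling (0.00). The 64 peaks in all 15 of the authors' lists became 22 at a −log10 q of at least 5 and 44 with an overlap of 250 bases.

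With replicate number as a block, 5 higher and 23 lower peaks were called for early Fra2, 1 and 17 for late Fra2, 0 and 0 for the inhibitor and for the difference of effects, 2 and 2 for late against early control, 13 and 7 for early Fra2 against the inhibitor, and 9 and 5 lower genes for early and late Fra2. Same-numbered libraries deviated together (r over 0.1) in 4 of 30 pairs (r from −0.213 to 0.284), and 6 of 15 libraries correlated best with their own number. The highest values were those of early Fra2 with early control, 0.284 for replicate 1 and 0.253 for replicate 3, while replicate 2 had −0.0076.

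Of 70 peak calls in all comparisons, 11 stood under all 22 alternatives, and of 15 gene calls 0 under all 23. Which cause lies behind the shift with scaling was not tested. Single small changes can be missed: at a log2 change of 1, 28% of simulated peaks were recovered for early Fra2. The simulation took the depth and number of the early Fra2 and early control libraries and set the same spread for every peak. None of these was varied. Fitted on those groups alone, it does not give the recovery of the fit over all 15 libraries.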
